A study of Mus musculus with 4 samples.

Results

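The spectrin, adducin and ankyrin membrane skeleton of the red cell was followed here through 6 genes: Spnb1 (current symbol Sptb) for β-spectrin, Ank1 for ankyrin-1, Epb4.2 (Epb42), Add1 and Add2 for the α and β subunits of adducin, and Epb4.9 (Dmtn) for dematin. The members were taken by symbol from the authors' 6 deposited tables, 1 for each pair of 4 groups of mouse G1E cells. All 6 were found, among 2982 genes in the tables, and 4 of them have a level in every group, as do 1157 genes in all. G1E is an established line of immature erythroid cells that lacks a working Gata1 gene. The groups were G1E cells with the genotype control, GATA-1 WT, GATA-1 V205M or GATA-1 2RA, with 1 sample each, and β-estradiol had been given to all of them, the control included. V205M is known as a change that weakens the contact between GATA-1 and its cofactor FOG-1, and what 2RA changes is left unsaid in the labels. The sources used here do not say how the GATA-1 forms were brought into the cells or whether each group is 1 clone.

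The membrane skeleton is the protein net under the red cell membrane. Rods of spectrin are joined at their ends through short actin filaments, which adducin caps and dematin bundles, and ankyrin-1 ties β-spectrin to the anion exchanger band 3 in the membrane, a link that the Epb4.2 protein strengthens. Erythroblasts build this net while they mature, GATA-1 is a main activator of red cell genes, and inherited faults of spectrin, ankyrin-1 or the Epb4.2 protein make fragile, rounded red cells.

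Levels are given in scaled reads, which are the authors' group means of reads over size factors. A gene is called listed where the authors' deposited table of a pair holds it. Those tables keep genes past a fold limit of 2 and an adjusted p limit of 0.01, so an unlisted member either missed a limit or was not tested, and a member listed in no table of a group has no level there. With 1 sample per group no difference has a replicate check, the authors' p-values compare these libraries and not the conditions, and the 95% counting intervals given with levels and folds reflect the number of reads alone. The whole reads behind the levels were recovered, and over the listed genes they summed to 2178397 in GATA-1 WT and 1218762 in GATA-1 2RA. The control and GATA-1 V205M each proved to be a mean of 2 count columns, with 1015015 and 276064 reads in the control and 1147539 and 977544 in GATA-1 V205M. Gata1 itself stood at 153 scaled reads in the control, 2652 with GATA-1 WT, 613 with GATA-1 V205M and 1421 with GATA-1 2RA. The summed level of the 9 erythroid markers found in the tables, of 10 searched (Slc4a1 among them, which is also a partner of the skeleton), was 3709 in the control, where 8 of them have a level, 69460 with GATA-1 WT, 1561 with GATA-1 V205M and 6122 with GATA-1 2RA. In the mutants the sum covers markers that moved in opposite directions. With GATA-1 2RA Hbb-b1 and Hbb-b2 were listed as higher than the control, Hbb-b1 at 2342 against 238. Hba-a1 and Hba-a2 were listed as lower there, Hba-a1 at 32.9 against 1291. With GATA-1 V205M Alas2 was listed as higher than the control, and Hba-a1, Hba-a2 and Hbb-b1 as lower. The 5 mast cell markers found, of 8, summed to 5448, 183, 2433 and 2398 in the control, GATA-1 WT, GATA-1 V205M and GATA-1 2RA. Cpa3 and Kit, at 2795 and 2429 in the control, made up most of its sum. The close sums of the mutants differ in make-up: Kit read 1440 in GATA-1 V205M and 2218 in GATA-1 2RA. Tpsab1 and Ms4a2 read 474 and 383 in GATA-1 V205M, and 139 and 2.14 in GATA-1 2RA. Against the control 3 of the 5 were listed as higher in GATA-1 V205M (Ms4a2, Tpsab1 and Hdc) and 1 as lower (Cpa3). In GATA-1 2RA 1 was listed as higher (Tpsab1) and 2 as lower (Cpa3 and Ms4a2). The 2 megakaryocyte markers found, of 9, summed to 266, 368, 24.6 and 1382 in the order of those sums, where GATA-1 WT has a level for 1 of them. None of the 5 macrophage, 3 lymphocyte and 5 stromal markers is in any table. The part that these marker shifts have in the members' values was not tested, and in bulk RNA fewer cells of a type and less RNA per cell cannot be told apart.

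Since GATA-1 binds GATA motifs in DNA, the sequence before the start of 4 members is of interest, and the RefSeq promoter table (build GRCm38.p6) holds 4 of the 6, namely those of Spnb1, Epb4.2, Add1 and Add2. The window searched ran from 250 bases before to 50 bases after the RefSeq start, 300 bases in all. Both strands were searched for the letters AGATAA, for the letters AGATAG, for the letters TGATAA and for the letters TGATAG, and 29.8% of 32851 promoters of that length hold at least 1 of them, as do 3 of these 4. The stretches that hold the match are shown, with the Add1 stretch for contrast with its partner Add2, each from 5′ to 3′ along the gene's strand and with the match in capitals.
Spnb1, chr12:76710518-76710547, minus strand, the first 30 transcribed bases: gtcccttccagcCTATCTccggaggggcat
Epb4.2, chr2:121037073-121037127, minus strand: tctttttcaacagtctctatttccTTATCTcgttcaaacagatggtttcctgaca
Add2, chr6:86028431-86028680, plus strand: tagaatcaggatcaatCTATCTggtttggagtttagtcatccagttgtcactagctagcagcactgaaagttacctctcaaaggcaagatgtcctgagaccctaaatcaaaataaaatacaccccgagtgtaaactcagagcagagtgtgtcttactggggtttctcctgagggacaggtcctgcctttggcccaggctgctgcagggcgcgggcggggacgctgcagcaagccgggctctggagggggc
Add1, chr5:34573414-34573663, plus strand, without a match: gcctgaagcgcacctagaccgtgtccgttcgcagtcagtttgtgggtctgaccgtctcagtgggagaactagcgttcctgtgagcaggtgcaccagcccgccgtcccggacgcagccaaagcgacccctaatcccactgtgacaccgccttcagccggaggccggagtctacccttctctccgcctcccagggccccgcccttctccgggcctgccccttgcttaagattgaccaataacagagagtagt
In Spnb1 the match is AGATAG on the opposite strand, and its first letter lies at base 13 counted from 1 at the start. In Epb4.2 the match is AGATAA on the opposite strand, 226 bases before the RefSeq start and 31 bases before the first start annotated in GENCODE M21. Add2 has AGATAG on the opposite strand 234 bases before its start. The letters CACCC, which Krüppel-like factors such as Klf1 can read, were found in the windows of Spnb1 and Add2 and in 57.5% of all promoters. A match of this kind is common and describes the letters only, and no binding was measured in these samples.

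In GATA-1 WT cells most of the skeleton genes were higher than in the control: 5 of the 6 members were listed as higher (all but Epb4.2), where 8.17% of 12931 tested genes were, and none as lower, against 4.86% of tested genes. The median log2 change over the 6 members was 2.46, from 0.53 to 3.94, and the median over the 2040 genes with both levels, all of them listed in some table, was 1.05. Scaled by total reads or by the median of ratios over the genes with a level in all 4 groups, the members' median was 1.73 or 1.70, and the lowest value, that of Epb4.2, turned to -0.18 or -0.21. With edgeR and an assumed biological coefficient of variation of 0.4, 2 of these 5 passed the same limits. Both mutants had members listed below the wild-type level. Against GATA-1 WT, 5 members were listed as lower in GATA-1 V205M and none as higher, with 5.65% and 3.70% of tested genes listed in these directions, and the median over 5 members was -3.45, set beside -0.40 over 1802 genes. Add1 is not in that median: it was listed in no comparison of GATA-1 V205M, so a change of Add1 short of the limits would not enter it. In GATA-1 2RA 3 members were listed as lower than in GATA-1 WT and none as higher, with 4.04% and 3.33% of tested genes, and the median over 5 members was -1.51, set beside -0.14 over 1554 genes. With the same edgeR setting, 3 of the 5 passed in GATA-1 V205M and 1 of the 3 in GATA-1 2RA. The comparisons that share a group share its single sample, so their counts are not independent. Each member had to be listed in at least 1 comparison to be followed, and most tested genes were listed in none. The shares of tested genes, here and below, are thus not a like background for the members. Of the 2982 genes in any table, 1057 were listed as higher with GATA-1 WT than in the control. Below GATA-1 WT, 731 were listed in GATA-1 V205M and 523 in GATA-1 2RA.

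**Figure D1:**
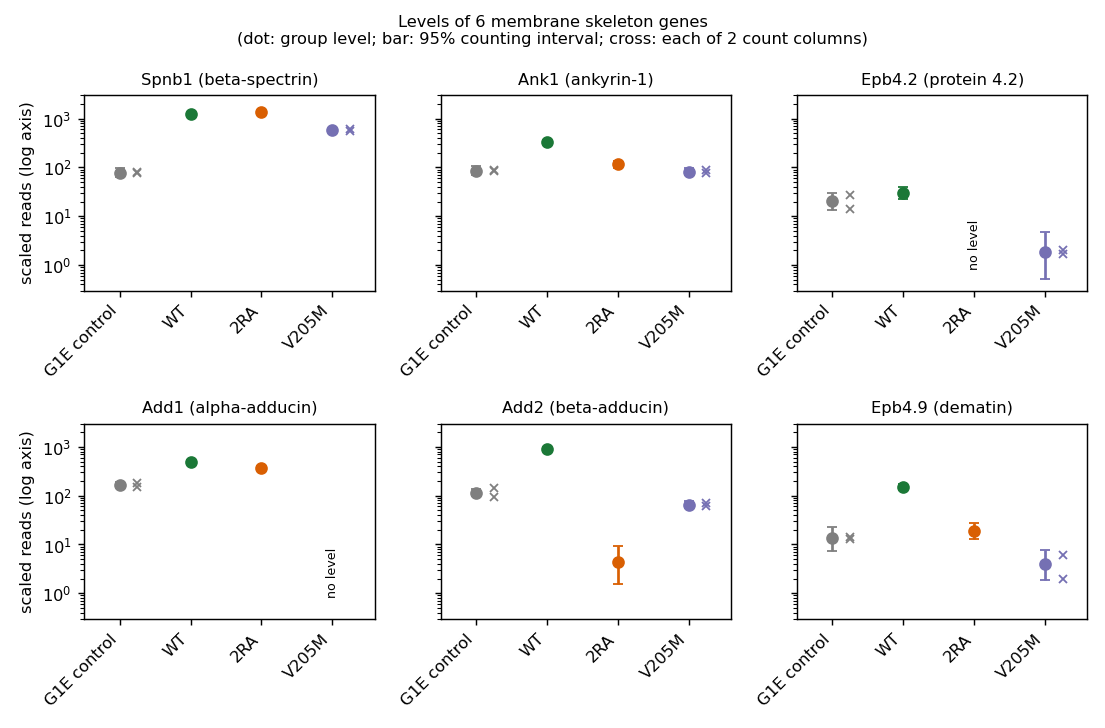
Levels of the 6 members in scaled reads (log axis) in the G1E control and in cells with GATA-1 WT, 2RA or V205M, 1 sample per group. Dots are the group levels, bars their 95% counting intervals and crosses the 2 count columns behind the control and V205M. GATA-1 WT holds the highest level of every member except Spnb1, which reads 1349 in 2RA and 1217 in WT, but the order of WT and the control for Epb4.2 and of WT and 2RA for Add1 turns under another scaling, and Epb4.2 in 2RA and Add1 in V205M have no level.

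Against the control, the mutants split the members. In GATA-1 V205M 1 member was listed as higher (Spnb1) and 1 as lower (Epb4.2), with 4.83% and 3.32% of tested genes listed in these directions. In GATA-1 2RA 2 were listed as higher (Spnb1 and Add1) and 1 as lower (Add2), with 4.86% and 2.61% of tested genes. The members' log2 changes ran from -2.92 to 2.86 in GATA-1 V205M and from -4.47 to 4.09 in GATA-1 2RA. With edgeR at 0.4, 0 members passed in GATA-1 V205M against the control and 1 in each direction in GATA-1 2RA. Their median was -0.81 in GATA-1 V205M, where 1813 genes gave 0.25, and -0.48 without count column 1 of the control. In GATA-1 2RA it was 0.49, where 1580 genes gave 0.40, and it turned to -0.05 when the levels were scaled by the median of ratios over the genes with a level in all 4 groups.

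**Figure D2:**
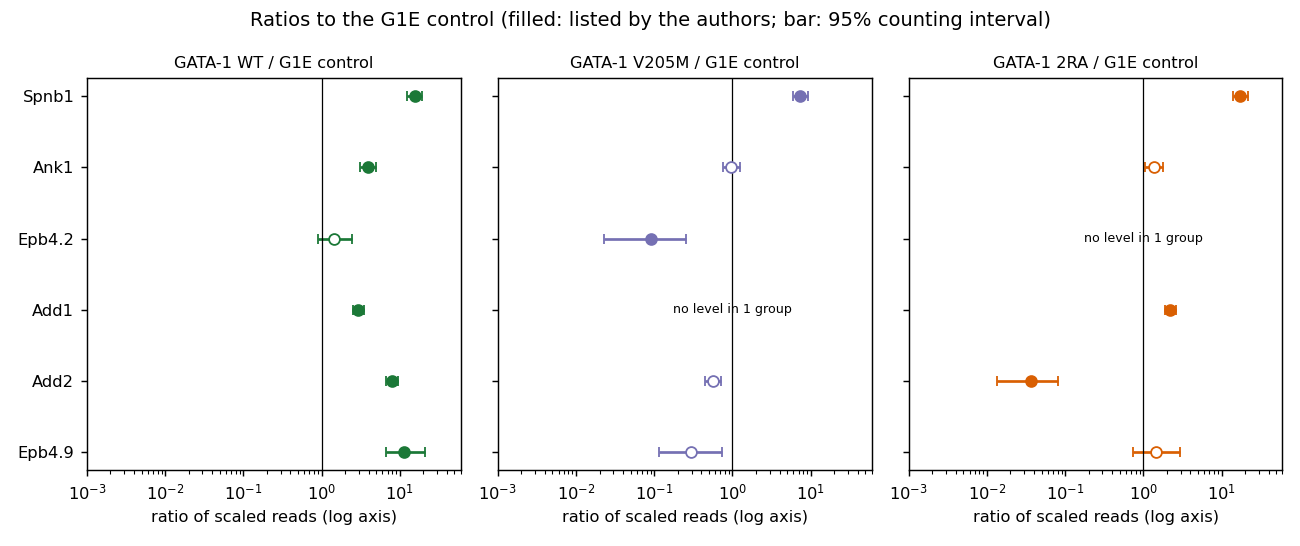
Ratio of each member's level in GATA-1 WT, V205M and 2RA to the G1E control (log axis, line at 1). Filled points are listed in the authors' tables, open points are not, and bars are 95% counting intervals. Spnb1 lies to the right of the line in all 3 panels (15.5, 7.34 and 17.2), while Add2 lies to the right with WT (7.95) and to the left with V205M (0.565, open) and 2RA (0.0368).

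Spnb1 encodes erythroid β-spectrin, the subunit that binds ankyrin-1, and lies on chromosome 12 at 76580488 to 76710547, minus strand (GRCm38). It read 78.5 scaled reads in the control, 1217 with GATA-1 WT, 576 with GATA-1 V205M and 1349 with GATA-1 2RA, from 122, 1932, 1241 and 1888 reads. It was the single member listed as higher than the control with every GATA-1 form, where Add1 has no level in GATA-1 V205M, and the counting intervals of the 4 levels did not overlap. The rise over the control was 15.5-fold (95% counting interval 12.5 to 19.4) in GATA-1 WT, 7.34-fold (5.91 to 9.23) in GATA-1 V205M and 17.2-fold (13.9 to 21.5) in GATA-1 2RA. In the authors' deposited tables these have adjusted p-values of 3.9e-90, 1.7e-56 and 7.7e-100. GATA-1 2RA differed from GATA-1 WT by a factor of 1.11 (1.04 to 1.18), which was not listed. GATA-1 V205M was 2.11-fold (1.97 to 2.27) below GATA-1 WT and 2.34-fold (2.18 to 2.52) below GATA-1 2RA, and both gaps were listed. The gap to GATA-1 WT fell short of the 2-fold limit under both other scalings: its log2 value, -1.08, became -0.65 by total reads of the shared genes and -0.55 by the median of ratios. The log2 difference of GATA-1 2RA from GATA-1 V205M, 1.23, stayed past that limit by total reads, at 1.21. By the median of ratios it fell short, at 0.90.

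Spna2 (Sptan1) encodes a spectrin used in many tissues and was lowest with GATA-1 WT. It had 25.4 scaled reads in the control, 9.45 with GATA-1 WT, 138 with GATA-1 V205M and 125 with GATA-1 2RA. It was listed as higher in GATA-1 2RA than in the control (4.91-fold, 95% counting interval 3.28 to 7.61) and higher in GATA-1 V205M than in the control (5.42-fold, 3.67 to 8.30), while its ratio of GATA-1 WT to the control, 0.371 (0.184 to 0.719), was not listed. Both mutants thus stood above GATA-1 WT, by 14.6-fold (8.71 to 26.4) for GATA-1 V205M and 13.2-fold (7.81 to 24.2) for GATA-1 2RA. Spnb2 (Sptbn1), a β-spectrin of many tissues, was listed as lower with GATA-1 WT than in the control, at 63.6 against 153 scaled reads.

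Ank1 encodes ankyrin-1 and lies on chromosome 8 at 22974844 to 23150497, plus strand. It read 85.3 scaled reads in the control, 333 with GATA-1 WT, 82.3 with GATA-1 V205M and 116 with GATA-1 2RA, from 129, 528, 177 and 162 reads. The counting interval of the GATA-1 WT level lay clear of the other 3, and that of the control overlapped both mutants. The rise there was 3.90-fold (95% counting interval 3.12 to 4.91), with an adjusted p of 1.5e-10 in the authors' deposited table. GATA-1 V205M lay 4.04-fold (3.40 to 4.82) and GATA-1 2RA 2.87-fold (2.41 to 3.45) below GATA-1 WT, both listed. Neither mutant was listed against the control: the log2 change was 0.44 in GATA-1 2RA, turning to -0.13 under scaling by the median of ratios, and -0.05 in GATA-1 V205M, turning to 0.05 without count column 1 of that group. The interval of the GATA-1 V205M ratio to the control ran from 0.746 to 1.25, so a shift of either sign within those limits was not detectable at this depth.

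Epb4.2 encodes a membrane protein that binds band 3 and ankyrin-1, and lies on chromosome 2 at 121017891 to 121037072, minus strand. It had the fewest reads of the 6 over the groups with a level: 20.7 scaled reads in the control, 30.2 in GATA-1 WT and 1.86 in GATA-1 V205M, from 37, 48 and 4 reads, with no level in GATA-1 2RA. The control and GATA-1 WT could not be told apart at this depth, with a ratio of 1.46 (95% counting interval 0.895 to 2.43) that was not listed and whose log2 value of 0.53 turned to -0.18 and -0.21 under the other 2 scalings. In GATA-1 V205M Epb4.2 fell 11.1-fold (3.87 to 43.9) below the control and 16.2-fold (5.93 to 62.3) below GATA-1 WT. The authors' deposited tables give adjusted p-values of 0.0015 and 0.00082 for these. The lowest count in any column of the tables is 1, and the sources used here do not say whether 1 was added to every count, which bears on low levels such as this one of 2 reads in each column of GATA-1 V205M.

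Add1 encodes α-adducin, the subunit found in most tissues, and lies on chromosome 5 at 34573664 to 34632308, plus strand. It read 167 scaled reads in the control, 491 in GATA-1 WT and 372 in GATA-1 2RA, from 266, 779 and 520 reads, and has no level in GATA-1 V205M. Both forms with a level stood above the control. The rise was 2.93-fold (95% counting interval 2.50 to 3.45) in GATA-1 WT and 2.22-fold (1.88 to 2.63) in GATA-1 2RA, with adjusted p-values of 8.6e-11 and 8.3e-06 in the authors' deposited tables. Under scaling by total reads and by the median of ratios of the shared genes both stayed above the control but fell short of the 2-fold limit, with log2 changes of 0.81 and 0.78 in GATA-1 WT, from 1.55, and of 0.83 and 0.58 in GATA-1 2RA, from 1.15. The log2 difference between GATA-1 2RA and GATA-1 WT, -0.40, was not listed and turned to 0.02 when levels were scaled by total reads of the shared genes.

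Add2 encodes β-adducin, the subunit of red cells and brain, and lies on chromosome 6 at 86028681 to 86124409, plus strand. It read 116 scaled reads in the control, 925 with GATA-1 WT, 65.8 with GATA-1 V205M and 4.29 with GATA-1 2RA, from 197, 1469, 143 and 6 reads. β-adducin was thus high with the wild-type form and lowest with GATA-1 2RA, and none of the 4 counting intervals overlapped. Over the control it had risen 7.95-fold with GATA-1 WT (95% counting interval 6.69 to 9.50), with an adjusted p of 8.4e-32 in the authors' deposited table. In GATA-1 2RA it fell 27.2-fold (12.2 to 75.2) below the control and lay 216-fold (98.9 to 589) below GATA-1 WT, with adjusted p-values of 7.4e-26 and 2.3e-80 in the authors' deposited tables. GATA-1 V205M lay 14.1-fold (11.8 to 16.8) below GATA-1 WT, and its ratio to the control, 0.565 (0.445 to 0.718), was not listed. Add2 set the mutants apart in the opposite sense to Spnb1: it was 15.3-fold (6.88 to 42.5) lower in GATA-1 2RA than in GATA-1 V205M, where Spnb1 was higher.

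In that comparison of GATA-1 2RA with GATA-1 V205M, Spnb1 was the single member listed as higher and Add2 the single one listed as lower, with 3.60% and 2.62% of tested genes listed in these directions. The other 2 members with both levels, Ank1 and Epb4.9, had log2 changes of 0.49 and 2.02, and neither was listed. The median over the 4 members was 0.86, and 0.15 over 1550 genes. The Epb4.9 value was 2.76 without count column 1 of GATA-1 V205M and 1.53 without column 2.

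**Figure D3:**
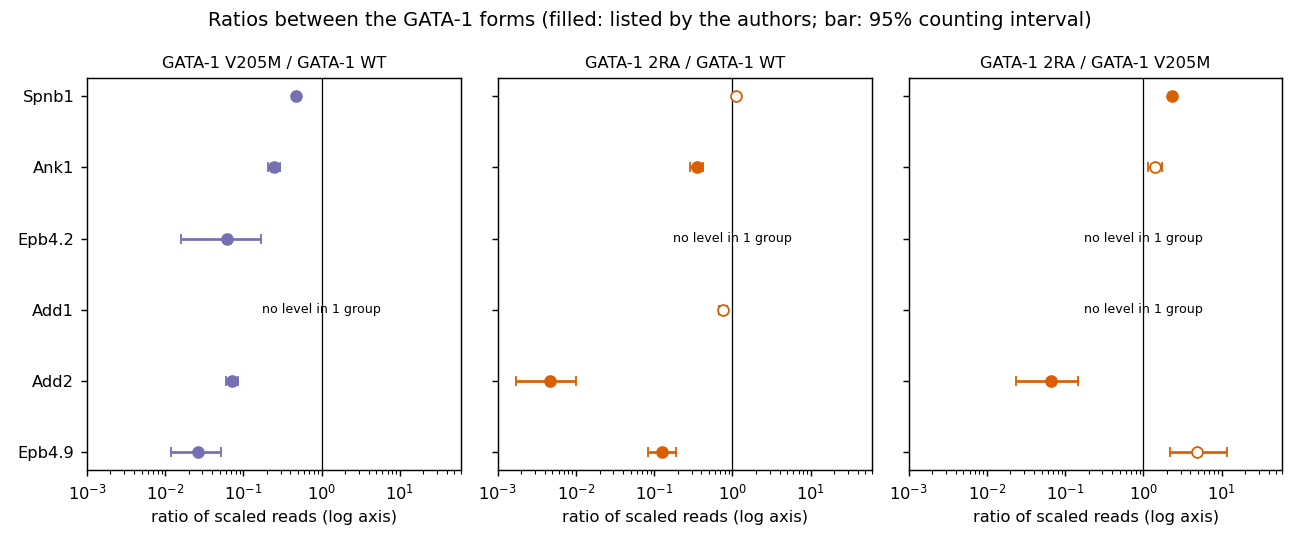
Ratio of each member's level between GATA-1 forms: V205M to WT, 2RA to WT and 2RA to V205M (log axis, line at 1). Filled points are listed in the authors' tables, open points are not, and bars are 95% counting intervals. Against WT, every V205M point lies below 1, from 0.0264 for Epb4.9 to 0.473 for Spnb1, and the lowest 2RA point is Add2 at 0.00463.

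The adducin subunits work as a heterodimer, so their levels were also compared per length, as scaled reads per kilobase of the union of annotated exons (8.56 kb for Add1 and 10.1 kb for Add2). In the control Add2 stood at 11.5 per kb and Add1 at 19.5, a ratio of 0.587 (95% counting interval 0.470 to 0.733). In GATA-1 WT they were 91.3 and 57.3, a ratio of 1.59 (1.46 to 1.74), which became 1.05 (0.960 to 1.14) with the length of the longest transcript in place of the union. The excess of β- over α-adducin in GATA-1 WT therefore hangs on the length used. The length cancels when the groups are compared. In GATA-1 2RA Add1 stood at 43.4 and Add2 at 0.423 per kb, so α-adducin RNA was 103 times (46.8 to 281) β-adducin RNA, or 156 times (71.2 to 427) with the longest transcripts. Add3, which encodes γ-adducin, was present in all groups at 177, 351, 154 and 449 scaled reads in the control, GATA-1 WT, GATA-1 V205M and GATA-1 2RA. Per kb of exon union these are 27.8, 55.1, 24.1 and 70.3, above Add1 in the control and GATA-1 2RA and close to it in GATA-1 WT. This too hangs on the length used: the longest transcripts are 4.43 kb for Add3 and 4.55 kb for Add1. On those lengths Add3 would lie below Add1 in GATA-1 WT, where they read 351 and 491 scaled reads. Its excess in the control would narrow. Add3 was listed as higher in GATA-1 2RA than in the control (2.53-fold, 2.15 to 2.99) and higher than in GATA-1 V205M (2.92-fold, 2.55 to 3.34). In GATA-1 V205M it was listed as lower than in GATA-1 WT (2.28-fold, 1.99 to 2.63).

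**Figure D4:**
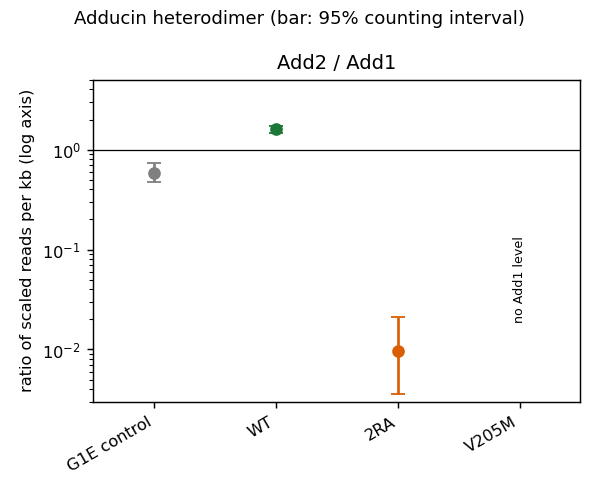
Ratio of the subunit RNAs of the adducin heterodimer (Add2 to Add1), in scaled reads per kb of exon union on a log axis, for the 4 groups. Bars are 95% counting intervals and the line marks equal levels. The ratio runs from 1.59 in WT and 0.587 in the control to 0.00974 in 2RA, while V205M has no Add1 level.

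Epb4.9 encodes dematin, which bundles actin at the spectrin junctions, and lies on chromosome 14 at 70601263 to 70636048, minus strand. It read 13.4 scaled reads in the control, 152 with GATA-1 WT, 4.01 with GATA-1 V205M and 19.3 with GATA-1 2RA, from 20, 241, 9 and 27 reads. Dematin was low everywhere except with the wild-type form. It rose 11.3-fold from the control to GATA-1 WT (95% counting interval 6.65 to 20.8), with an adjusted p of 3.3e-09 in the authors' deposited table. GATA-1 V205M lay 37.9-fold (19.6 to 84.0) and GATA-1 2RA 7.87-fold (5.28 to 12.2) below GATA-1 WT, with adjusted p-values of 1.5e-18 and 5.9e-06 in the authors' deposited tables. The log2 gap of GATA-1 V205M from GATA-1 WT, -4.93, was -5.67 without count column 1 of GATA-1 V205M and -4.44 without column 2, and these columns held 7 and 2 reads. Neither mutant was listed against the control. The ratio was 0.299 (0.114 to 0.737) in GATA-1 V205M, with log2 values from -2.26 to -1.04 when 1 of its columns was left out. In GATA-1 2RA the ratio was 1.44 (0.732 to 2.94), and its log2 value of 0.49 turned to -0.05 under scaling by the median of ratios.

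The order of the groups differed from member to member. Ank1, Epb4.9 and Add1 ran from GATA-1 WT down through GATA-1 2RA to the control, with GATA-1 V205M lowest in the first and second of these. Add2 ran from GATA-1 WT to the control, with both mutants below it and GATA-1 2RA lowest. Epb4.2, with no level in GATA-1 2RA, had GATA-1 V205M lowest. Spnb1 had the control lowest. Neighbours in these orders whose ratio had a counting interval that includes 1 were the control and GATA-1 V205M for Ank1, GATA-1 WT and the control for Epb4.2, and GATA-1 2RA and the control for Epb4.9. Another scaling also turned the order of GATA-1 2RA and the control for Ank1 (log2 change -0.13). It did the same for GATA-1 2RA and GATA-1 WT in Add1 (0.02).

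How alike the patterns were was described by the Euclidean distance between profiles of log2 scaled reads plus 1, centred on each gene's mean over the 4 groups. Among the 4 members with all 4 levels the closest pair was Ank1 and Epb4.9, at 2.07, followed by Spnb1 and Ank1 at 2.74. The farthest pair was Spnb1 and Add2, at 6.65, and Add2 was 4.46 from Epb4.9 and 4.51 from Ank1. Over 1150 other genes with a mean level of 10 scaled reads or more, the genes nearest to Ank1 were Gm8185 (0.14), Strn4 (0.18) and Ccdc97 (0.18). Strn4, for instance, read 71.7, 247, 68.6 and 85.7 in the control, GATA-1 WT, GATA-1 V205M and GATA-1 2RA. Those nearest to Spnb1 were Icam2 (0.40), Soat2 (0.56) and Nomo1 (0.64), and Nomo1 read 167, 1795, 1307 and 1842. Epb4.9 had Lzts1 (0.34), Tnfrsf13c (0.82) and Hemgn (0.85) as its nearest genes. Add2 had no gene as near: Col5a1 stood at 1.74 and Trim10 at 1.81. These distances rest on 4 values per gene and describe the profiles only.

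The members' partners in the skeleton and membrane were taken from a list of 26 genes, of which 16 are in any table. In GATA-1 WT 8 of the 26 were listed as higher than in the control, against 8.17% of tested genes, and 2 as lower, against 4.86% (Flot1, a membrane raft protein, and Fam38a, the mechanosensitive channel gene now called Piezo1). The other scalings, tried for the members alone, shift log2 levels of GATA-1 WT against the control by -0.73 or -0.77. Mpp1 (log2 change 1.41), Tpm1 (1.72), Rhd (1.20) and Kel (1.69) would then miss the 2-fold limit. Slc4a1, Gypc, Slc2a1 and Stom would stay past it. Below GATA-1 WT in GATA-1 2RA, Mpp1 (-1.04), Rhd (-1.16) and Cd47 (-1.03) also lie near that limit. Slc4a1 encodes band 3, to which ankyrin-1 holds, and read 5.80 scaled reads in the control, 527 with GATA-1 WT, 0.931 with GATA-1 V205M and 1.43 with GATA-1 2RA, the last 2 from 2 reads each, so that the doubt on an added count holds for them too. It rose 90.8-fold with the wild-type form (95% counting interval 42.7 to 237), and it was listed as lower than GATA-1 WT in both mutants, as were Ank1, Add2 and Epb4.9. Rhag, the Rh-associated glycoprotein of the same membrane complex, read 1180, 2197, 41.9 and 84.3 in the same order and was listed as lower than the control in both mutants. At the spectrin junctions, Gypc, the glycophorin that anchors the junction in the membrane, read 112, 635, 116 and 224, and Mpp1, its palmitoylated binding partner, read 200.1 in the control, 532 with GATA-1 WT and 259 with GATA-1 2RA.

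Of the other membrane partners, Stom and Kel were listed as lower in GATA-1 2RA than in GATA-1 V205M, and Rhd and Flot2 as higher. Stom, the membrane protein stomatin, read 94.1 scaled reads in the control, 714 with GATA-1 WT, 415 with GATA-1 V205M and 85.0 with GATA-1 2RA. Kel, the Kell blood group protein, read 45.2, 148, 109 and 23.6 in the same order. Both were listed as higher than the control in GATA-1 WT and GATA-1 V205M, and as lower in GATA-1 2RA than in either of these. Xk, the membrane protein linked to Kell, read 194, 168, 75.1 and 92.2 and was listed as lower than the control in both mutants. Rhd, of the Rh complex, read 83.2, 193, 34.6 and 85.7, and Cd47, a membrane protein of that complex, read 749, 977, 357 and 479. Both were listed as lower than GATA-1 WT in both mutants and as lower than the control in GATA-1 V205M. The ratio of GATA-1 2RA to GATA-1 V205M for Cd47, 1.34 (1.21 to 1.49), was not listed. Flot2, a raft protein like Flot1, read 73.7 with GATA-1 WT, 14.0 with GATA-1 V205M and 65.7 with GATA-1 2RA and has no level in the control.

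Of the actin-side partners, Tpm1, Capzb and Actb were higher in GATA-1 2RA than in GATA-1 WT, a gap that was listed for Capzb and Actb. Tpm1, a tropomyosin that lies along the junctional filament, was listed as higher than the control with all 3 forms, as Spnb1 was: 133 scaled reads in the control, 440.2 with GATA-1 WT, 550.3 with GATA-1 V205M and 792 with GATA-1 2RA. Its level in GATA-1 2RA was 1.80-fold above GATA-1 WT and 1.44-fold above GATA-1 V205M, and neither gap was listed. Capzb, the β subunit of the actin capping protein, stood at 557, 688, 701 and 2123, and in GATA-1 2RA, where β-adducin was lowest, it was 3.81-fold (95% counting interval 3.50 to 4.16) above the control. Actb, β-actin, was listed as higher in GATA-1 2RA than in GATA-1 WT, at 41435 against 17816 scaled reads, and has no level in the other groups. Slc2a1, the glucose transporter to which adducin and dematin can tie the skeleton, read 59.4, 306, 150.1 and 67.9, and was listed as higher than the control in GATA-1 WT and GATA-1 V205M.

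**Figure D5:**
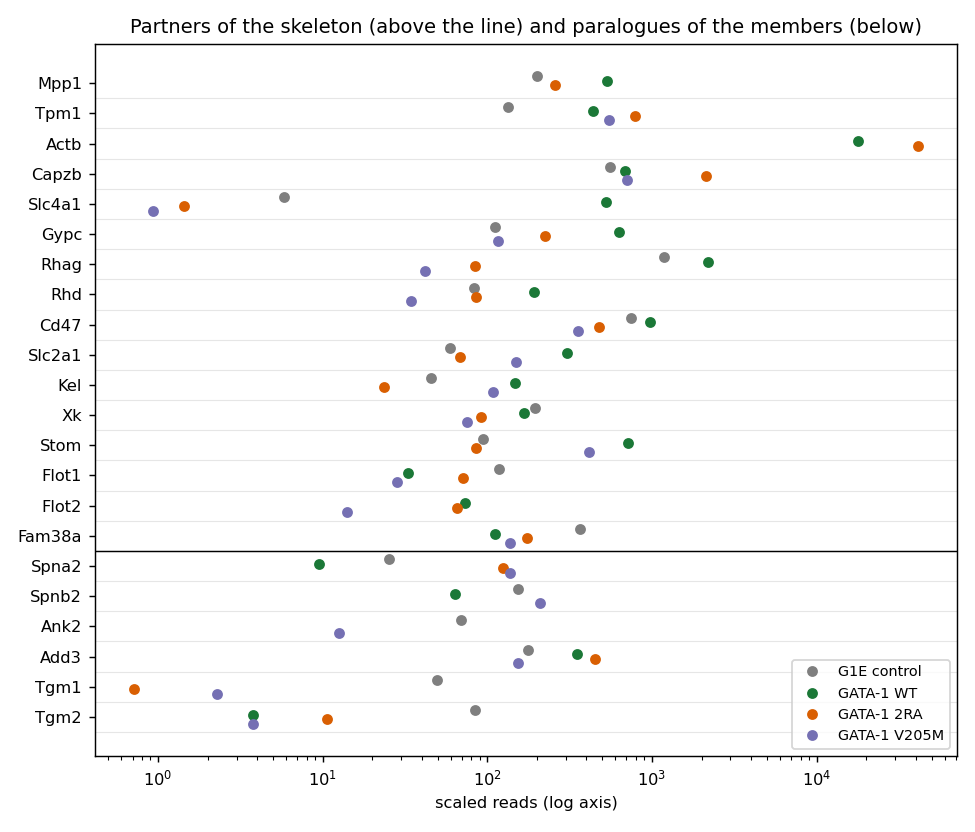
Levels of the 16 listed partners of the skeleton (above the line) and the 6 listed paralogues of the members (below it), in scaled reads on a log axis, 1 dot per group. Slc4a1 spans from 0.931 in GATA-1 V205M to 527 in GATA-1 WT, Capzb is highest in GATA-1 2RA at 2123, and Spna2 is lowest in GATA-1 WT at 9.45.

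Over the 26 genes of the partner list, 4 were listed as higher and 6 as lower in GATA-1 V205M than in the control, against 4.83% and 3.32% of tested genes. In GATA-1 2RA 2 were listed as higher and 3 as lower than in the control, against 4.86% and 2.61%. Against GATA-1 WT none was higher and 8 were lower in GATA-1 V205M, where 3.70% and 5.65% of tested genes were. In GATA-1 2RA 2 were higher (Actb and Capzb) and 9 lower than in GATA-1 WT, against 3.33% and 4.04%. Between the mutants, 5 were higher and 3 lower in GATA-1 2RA than in GATA-1 V205M, against 3.60% and 2.62%. Of the 20 paralogues of the members 6 are in any table, and none of them was listed as higher with GATA-1 WT than in the control, while 2 were lower, against 8.17% and 4.86% of tested genes. The second of these besides Spnb2 was Tgm2, a transglutaminase from the enzyme family to which the Epb4.2 protein is related, at 3.78 scaled reads in GATA-1 WT and 83.7 in the control. Its relative Tgm1 was listed as lower than the control in both mutants, at 49.6 scaled reads in the control, 2.29 in GATA-1 V205M and 0.714 in GATA-1 2RA, and Ank2, another ankyrin, as lower in GATA-1 V205M, at 12.6 against 69.0. The Tgm1 level in GATA-1 2RA is the lowest count, 1 read, so the doubt on an added count holds for it too. The lists were written with earlier results of these data known, so their counts describe them and are no separate support for the members.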

How the data were processed

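RNA-seq was measured in 4 samples of G1E cells, 1 per group. Per the labels, total RNA was treated with DNase, and the TruSeq RNA kit gave the libraries for sequencing on an Illumina instrument. The submitters' processing notes name deepTools, Cuffdiff, Cufflinks, TopHat and the build mm10, while their roles and versions, and the treatment of overlapping genes, are nowhere given in the sources used here. The deposited signal is a mean of reads over size factors for each group, as its values show. The fold deposited by the authors divides these means, the deposited log2 value is its logarithm, and the deposited p-value comes with an adjusted value. The sources used here do not say how the test used the count columns.

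Whole reads were recovered at a relative tolerance of 1e-09, for 100.0% of the levels of each group. Size factors were 1.167 and 0.3574 for the control columns, 1.163 and 0.9983 for those of GATA-1 V205M, 1.4 for GATA-1 2RA and 1.588 for GATA-1 WT. The number of tested genes, 12931, was derived from the adjusted p-values of 5 tables and assumed for that of GATA-1 2RA against GATA-1 V205M, whose rounded p-values gave 13006. For log2 changes 1 scaled read was added as a pseudocount. Folds are ratios of levels, with exact intervals from the recovered reads. The members and lists were chosen with earlier results of these data known. Some genes are not reported here, and counts of members and lists leave them out. Text names all members, any listed gene of the partner and paralogue lists, and up to 3 genes nearest to each member in pattern. Lengths and coordinates come from GENCODE M21 (GRCm38), with older symbols matched through RefSeq synonyms. Computation used Python 3.11.15, NumPy 2.4.6, SciPy 1.17.1, pandas 2.3.3 and matplotlib 3.10.9. As an alternative, edgeR 4.0.16 in R 4.3.3 was run on the recovered reads with an assumed biological coefficient of variation of 0.2 or 0.4. Its p-values were adjusted over the genes with both levels in each comparison, all of them listed in some table. The scripts were tested on simulated data. Alternatives of scaling, pseudocount, call rule, gene length and count column were tried.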

Additional observations from a re-analysis of the deposited data

How the results depend on the processing

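No paired analysis was possible because each group is 1 sample. Counts of listed members changed with the rule of calling. With a fold above 4, 3 members were higher with GATA-1 WT than in the control, 1 was higher in GATA-1 2RA than in the control, and 0 were higher in GATA-1 2RA than in GATA-1 V205M. With edgeR on the recovered reads of 1550 to 2040 listed genes per comparison and an assumed biological coefficient of variation of 0.2, 1 member was higher in GATA-1 2RA than in the control and 2 than in GATA-1 V205M. With 0.4, 2 members were higher with GATA-1 WT than in the control, 0 higher and 0 lower in GATA-1 V205M, 1 higher in GATA-1 2RA, 3 lower in GATA-1 V205M and 1 in GATA-1 2RA than in GATA-1 WT, and 0 higher than in GATA-1 V205M. Over all genes, edgeR at 0.2 called 880 higher and 565 lower with GATA-1 WT than in the control, 385 and 338 in GATA-1 V205M, and 466 and 264 in GATA-1 2RA. At 0.4 these were 95 and 87, 34 and 40, and 68 and 51. Against GATA-1 WT it called 351 and 568 in GATA-1 V205M (58 and 84 at 0.4) and 364 and 415 in GATA-1 2RA (87 and 69), and 365 and 241 in GATA-1 2RA against GATA-1 V205M (83 and 55).

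Scaling by total reads of the 1157 shared genes shifted log2 levels against the control by -0.73 in GATA-1 WT, -0.31 in GATA-1 V205M and -0.32 in GATA-1 2RA, and the median of ratios by -0.77, -0.24 and -0.57. The members' median then became 1.73 and 1.70 for GATA-1 WT against the control, -1.10 by total reads for GATA-1 2RA against GATA-1 WT, and by median of ratios 0.53 for GATA-1 2RA against GATA-1 V205M and -0.05 for GATA-1 2RA against the control, a turn of sign. A pseudocount of 10 gave -1.89 for GATA-1 V205M against GATA-1 WT. Over listed members alone the medians were 2.98 and -0.03 for GATA-1 WT and V205M against the control, -2.91 for GATA-1 2RA against GATA-1 WT and -1.22 for GATA-1 2RA against GATA-1 V205M, where the last turned sign because fewer genes entered. With the longest transcript as length, the ratio of Add2 to Add1 was 0.387 for the control, 1.05 for GATA-1 WT and 0.00641 for GATA-1 2RA. Leaving out a count column, an alternative for the medians chosen after seeing the data, moved no median beyond the counting interval of its middle member. Where 2 members were in the middle, the mean of their interval ends was used. Neither is an interval of the median itself. The cause of the other shifts was not tested. Of 180 alternative values for single members, 140 stayed within the counting interval and 40 did not, and 0 listed changes turned sign. Under another scaling 4 listed changes fell short of the 2-fold limit, those of Add1 in GATA-1 WT and GATA-1 2RA against the control and of Spnb1 in GATA-1 V205M against GATA-1 WT and against GATA-1 2RA. Depth limits Epb4.2 and Epb4.9 most, along with Add2 in GATA-1 2RA. With a minimum mean level of 100 in place of 10, the 3 genes nearest to Spnb1 and to Ank1 kept 2, those of Epb4.9 kept 1 and those of Add2 kept 0.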

Other observations

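The control and GATA-1 V205M levels each combine 2 count columns, whose nature the labels do not state. Across genes of at least 100 reads, log2 ratios of column 1 to column 2 had an SD of 0.236 in the control and 0.177 in GATA-1 V205M. Add2 was the single member whose ratio between columns had a 95% counting interval without 1: in the control it read 140.5 scaled reads in column 1 and 92.3 in column 2, a ratio of 1.52 (1.04 to 2.28). With 1 column of the control left out, its log2 change in GATA-1 WT was 3.31 or 2.71. Spnb1 read 550.1 and 602 in the columns of GATA-1 V205M, and Ank1 read 76.5 and 88.1.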
